A study of Mus musculus with 8 samples.

Results

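The variable (V) segments of the T cell receptor were followed in sorted T follicular helper (Tfh) cells. Members were the rows of both count tables annotated as TR_V_gene and named Trav (alpha chain) or Trbv (beta chain). There were 124 such segments among the 16735 genes in both tables. Of these, 103 were Trav segments in 19 families and 21 were Trbv segments in 18 families. The Trav6 family, with 15 rows, and Trbv19, with 1 row, are taken here as the segments of the transgenic K/BxN receptor. That assignment comes from what is known of the receptor and not from the sample labels, and the transgene's own sequence was not used here. The other 88 Trav and 20 Trbv segments are called endogenous on the same assumption, and Trav6 counts can include endogenous chains.

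The libraries came from K/BxN mice with a Th17 fate-mapping reporter, so that cells with a past Th17 state, and their progeny, keep ZsGreen fluorescence. Cells were sorted as CD4+ TCRβ+ CD25- CXCR5+ PD-1+, and split into ZsGreen+ and ZsGreen- cells, from spleen and from Peyer's patch, a lymphoid structure in the wall of the small intestine. All 4 groups share the transgene and the reporter. The groups were Peyer's patch ZsGreen-, Peyer's patch ZsGreen+, spleen ZsGreen- and spleen ZsGreen+, with 2 libraries each, 1 from experiment 1 and 1 from experiment 2. The labels used here do not name the Cre driver, the age or sex of the mice, or whether animals were pooled.

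A T cell receptor chain is made by joining 1 V segment to downstream segments and then splicing to a constant region, Trac for the alpha chain and Trbc1 or Trbc2 for the beta chain. A productive beta chain stops further rearrangement on the other allele, a control known as allelic exclusion, whereas alpha chain rearrangement goes on until positive selection, so transgenic T cells can carry an endogenous alpha chain. K/BxN mice are offspring of KRN receptor transgenic mice and NOD mice. The KRN receptor recognises a peptide of glucose-6-phosphate isomerase, and the mice develop arthritis driven by antibodies to that enzyme. Tfh cells help the B cells that make such antibodies.

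Sequences are shown for the segments on which the results turn. Trbv19 is the beta segment assigned to the transgene, and Trbv31 is the endogenous beta segment with the largest mean share over the libraries. Trav6d-4 is the Trav6 row with the most counts in these data, and Trav6-4 is its closest relative in the family. Whether Trav6d-4 is the transgene's own alpha segment was not tested. The sequences come from the coding parts of the GENCODE M21 transcripts on the GRCm38 build of the C57BL/6J reference. They run from the start codon and are written 5′ to 3′ on the gene's strand. NOD alleles can differ from them. For the Trbv segments the first 120 bases are shown, with the leader exon, which encodes the start of the signal peptide, in capitals. Trbv19 lies at chr6:41178589-41179048 on the plus strand and Trbv31 at chr6:41557693-41558371 on the minus strand.
Trbv19: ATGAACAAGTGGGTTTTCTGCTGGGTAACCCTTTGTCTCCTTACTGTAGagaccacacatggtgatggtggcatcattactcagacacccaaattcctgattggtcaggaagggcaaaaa
Trbv31: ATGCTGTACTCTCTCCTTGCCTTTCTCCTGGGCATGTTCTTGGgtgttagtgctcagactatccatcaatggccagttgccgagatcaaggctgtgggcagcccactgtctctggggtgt
For the Trav6 pair the first 300 of 347 coding bases are shown, with capitals at the 9 positions where the 2 differ, an identity of 97.41%. Trav6d-4 lies at chr14:52753398-52753846 and Trav6-4 at chr14:53454327-53454784, both on the plus strand.
Trav6d-4: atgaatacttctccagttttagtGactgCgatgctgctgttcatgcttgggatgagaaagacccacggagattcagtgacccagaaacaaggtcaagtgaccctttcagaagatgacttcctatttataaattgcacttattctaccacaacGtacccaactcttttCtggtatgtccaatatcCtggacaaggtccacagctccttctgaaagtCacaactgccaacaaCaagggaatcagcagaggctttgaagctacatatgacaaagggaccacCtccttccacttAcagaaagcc
Trav6-4: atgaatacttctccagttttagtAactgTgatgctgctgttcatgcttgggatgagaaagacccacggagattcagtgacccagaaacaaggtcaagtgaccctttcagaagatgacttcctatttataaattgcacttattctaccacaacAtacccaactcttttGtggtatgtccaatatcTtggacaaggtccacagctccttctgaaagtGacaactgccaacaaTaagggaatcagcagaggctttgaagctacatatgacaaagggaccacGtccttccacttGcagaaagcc
The other Trav6 segments were 69.43% to 88.47% identical to Trav6d-4. Trbv19 was 59.04% identical to its nearest relative among the Trbv segments, Trbv13-1.

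These similarities bear on the counts. Of the 103 Trav segments, 94 shared at least 1 window of 50 bases with another V segment and 33 shared all of their windows, while 19 of the 21 Trbv segments shared none. The deposited estimated counts were more than 0.01 from a whole number in 57.9% of Trav values and 10.7% of Trbv values, and 7 pairs of Trav rows had the same counts in all 8 libraries. Single Trav segments with near copies are therefore uncertain, and Trav usage is also given by family. Neither transgenic and endogenous copies of the same segment nor rearranged and unrearranged transcripts can be told apart in these counts, and in bulk RNA fewer cells using a segment and less receptor RNA per cell cannot be told apart.

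V segments held a small part of each library, with Trav counts from 5680 to 35302 and Trbv counts from 10892 to 38005 per library among total counts of 9950042 to 15318207. The genes of 2 sorting markers were present in every library, with Cxcr5 from 85.6 to 942 CPM (counts scaled to a fixed library total). Pdcd1, which encodes PD-1, was at 414 to 1254 CPM. Bcl6, another of the 7 Tfh markers, was at 102 to 302 CPM in experiment 1 and 13.6 to 43.9 CPM in experiment 2. In each experiment it was lowest in spleen ZsGreen+ cells. The 2 CD8 T cell markers summed to 3.13 to 6.94 CPM, 6 γδ T cell markers to 7.99 to 71.3 CPM, and the 3 V segments of invariant T cells, Trav1, Trav11 and Trav11d, to 0.557 to 2.57 CPM. The 6 B cell markers summed to 40.6 and 71.3 CPM in the ZsGreen- and ZsGreen+ Peyer's patch libraries of experiment 1 and to 0.804 to 4.73 CPM in the other 6 libraries. Cd8a was at 0 in 1 library, while Trdc, the γδ constant region, had 48 to 583 counts. The part of such cells in the V segment results was not tested.

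Trbv19, the transgene's beta segment, was the main beta segment in every library. In Peyer's patch it held 57.8% and 81.2% of Trbv counts in ZsGreen- cells (experiments 1 and 2) and 70.7% and 80.9% in ZsGreen+ cells. In spleen it held 63.8% and 86.2% in ZsGreen- cells and 77.3% and 85.0% in ZsGreen+ cells. The share was higher in experiment 2 than in experiment 1 in 4 of 4 groups, and ZsGreen+ libraries stood above ZsGreen- libraries in both tissues of experiment 1 but not in experiment 2. Over the 4 libraries of each sort the means were 78.5% ± 6.05 (SD, n = 4) in ZsGreen+ and 72.2% ± 13.6 (SD, n = 4) in ZsGreen- cells. The difference of 6.23 percentage points was within the spread of the libraries (exact two-sided permutation test, p = 0.457, adjusted p = 0.648 over 4 share tests, smallest possible p 0.0286). That spread includes the difference between the experiments. Permuted within experiments, the exact p was 0.278 (adjusted p = 0.444, smallest possible p 0.0556). Peyer's patch libraries averaged 5.41 points below spleen libraries. They lay below the matching spleen library in 4 of 4 pairs of the same sort and experiment. The exact permutation test over all libraries did not separate the tissues either (p = 0.486, adjusted p = 0.648). Within experiments the exact permutation p was 0.333 (adjusted p = 0.444). The 95% Wilson intervals of single libraries spanned at most about 2 points, for example 57.0% to 58.6% in the lowest library, and cover counting error only.

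The Trav6 family held less of the alpha chain counts in Peyer's patch than in spleen within each experiment and sort. Its share of Trav counts was 31.1% and 51.3% in Peyer's patch ZsGreen- cells (experiments 1 and 2) and 30.1% and 61.8% in Peyer's patch ZsGreen+ cells. In spleen it was 48.5% and 88.8% in ZsGreen- cells and 58.6% and 88.4% in ZsGreen+ cells. Peyer's patch lay below spleen in 4 of 4 pairs, with differences of -17.4 to -37.4 points, and experiment 2 lay above experiment 1 in 4 of 4 groups, so the tissues overlap when the experiments are pooled. Tissue means were 43.6% ± 15.6 in Peyer's patch and 71.1% ± 20.6 in spleen (SD, n = 4 each), a difference of 27.5 points that did not pass the exact permutation test (p = 0.143, adjusted p = 0.571). Permuted within experiments, the exact p was 0.0556 (adjusted p = 0.222), and 0.0556 is the smallest p that design can give. ZsGreen+ and ZsGreen- libraries averaged 59.7% ± 23.8 and 54.9% ± 24.3 (SD, n = 4 each). They were not separated over all libraries (exact permutation p = 0.743, adjusted p = 0.743) or within experiments (exact permutation p = 0.722, adjusted p = 0.722). The plot of shares by library shows the transgene segments beside Trbv31.

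**Figure D1:**
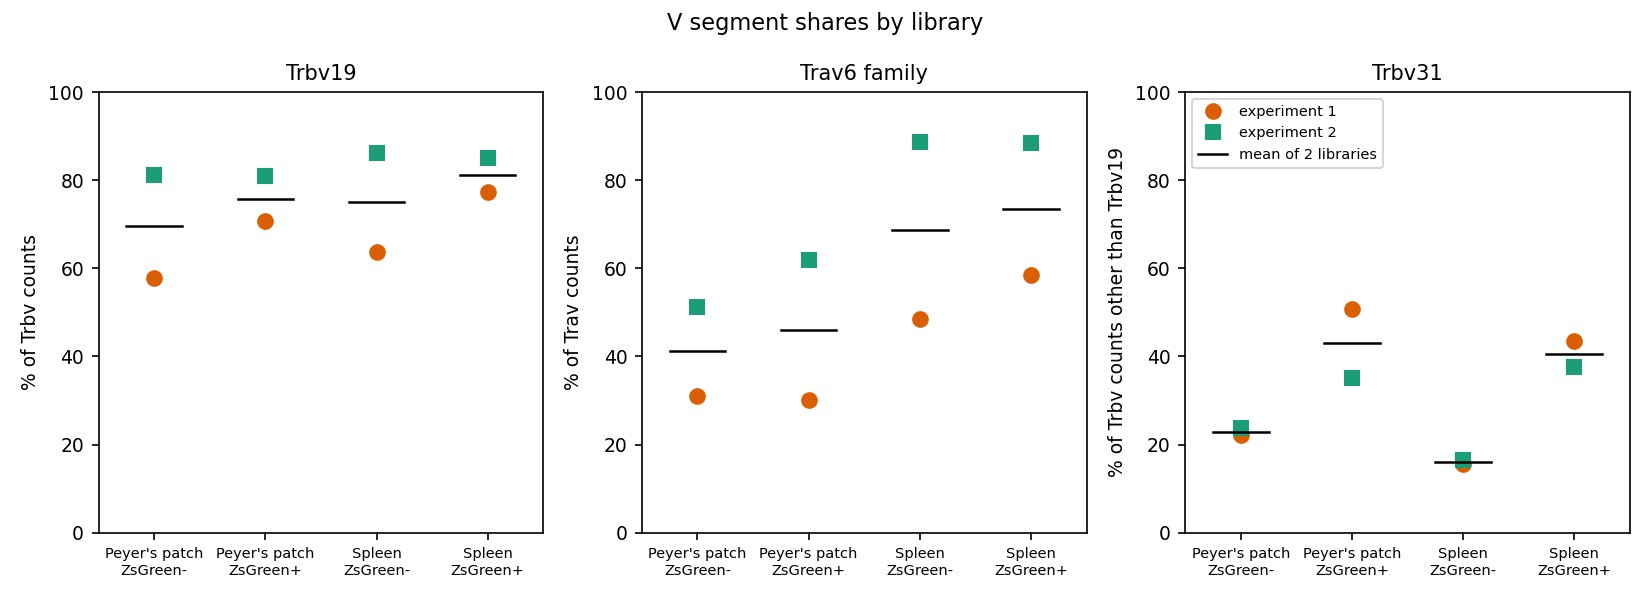
Share of Trbv19 in Trbv counts, of the Trav6 family in Trav counts and of Trbv31 in Trbv counts other than Trbv19 (y axes, %) in the 4 groups (x axes), with a circle for experiment 1, a square for experiment 2 and a line at the mean of the 2 libraries. The Trav6 family reached 88.8% in spleen and 61.8% at most in Peyer's patch, and Trbv31 was at 35.1% or more in the ZsGreen+ libraries and at 23.8% or less in the ZsGreen- libraries.

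Within the Trav6 family 1 row held most counts. Trav6d-4 had 1171 and 4376 counts in Peyer's patch ZsGreen- cells, 1197 and 9165 in Peyer's patch ZsGreen+ cells, 3517 and 22690 in spleen ZsGreen- cells and 5498 and 30672 in spleen ZsGreen+ cells. That was 61.6% to 98.4% of the family's counts. The spleen libraries of experiment 2 were the highest, and each spleen library exceeded the Peyer's patch library of the same sort and experiment. Next in the family, Trav6n-7 had 12.5 to 136 counts per library. Trav6-4, the relative at 97.41% identity, had 16.0 to 90.0 counts. Without Trav6d-4, the family held 6.24% to 14.8% of the remaining Trav counts.

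Counts were also taken per constant region of the same chain. Trav6 family counts per 100 Trac counts were 10.4 and 6.20 in Peyer's patch ZsGreen- cells, 11.9 and 10.3 in Peyer's patch ZsGreen+ cells, 20.7 and 19.6 in spleen ZsGreen- cells and 23.9 and 22.1 in spleen ZsGreen+ cells. All 4 Peyer's patch libraries lay below all 4 spleen libraries on this scale, and ZsGreen+ lay above ZsGreen- in 4 of 4 pairs. Other Trav counts per 100 Trac were 16.9 to 27.7 in experiment 1 and 2.49 to 6.34 in experiment 2, so the experiments differed more there than in the Trav6 family. In the beta chain, endogenous Trbv counts per 100 Trbc1 and Trbc2 counts were 11.7 to 14.6 in experiment 1 and 1.85 to 2.86 in experiment 2. Trbv19 on this scale was 18.9 and 11.3 in Peyer's patch ZsGreen- cells, 35.2 and 12.1 in Peyer's patch ZsGreen+ cells, 23.5 and 11.5 in spleen ZsGreen- cells and 39.8 and 13.4 in spleen ZsGreen+ cells, lower in experiment 2 in 4 of 4 groups. Summed constant region counts were 3226 to 4507 CPM in experiment 1 and 23854 to 27268 CPM in experiment 2, while endogenous Trav segments summed to 272 to 282 CPM in experiment 1 and 287 to 431 CPM in experiment 2. The labels name 2 library preparations without saying which library had which, and their part in this gap was not tested.

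**Figure D2:**
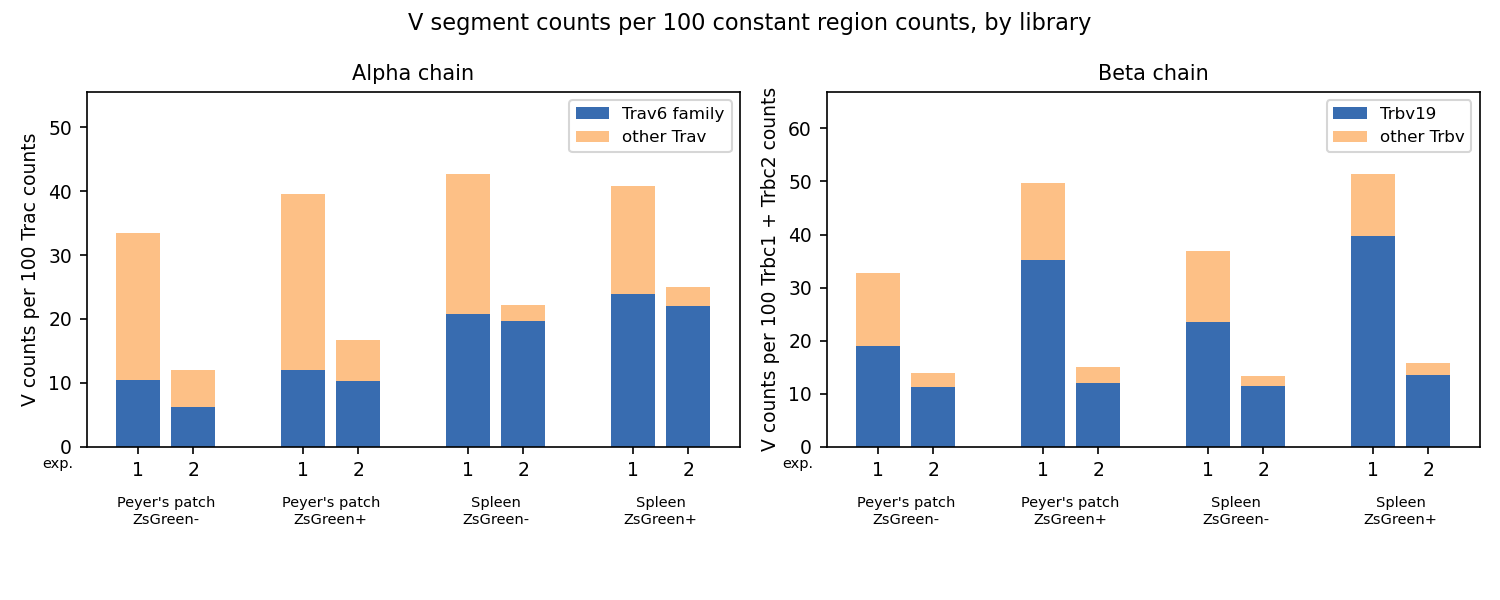
V segment counts per 100 constant region counts (y axes) in each library (x axes, experiments 1 and 2 in the 4 groups), for the alpha chain over Trac and the beta chain over Trbc1 plus Trbc2. Bars are single libraries, split into transgene segments (blue) and other segments (orange). The Trav6 part was 6.20 to 11.9 in Peyer's patch and 19.6 to 23.9 in spleen, and the other Trav part was 16.9 or more in experiment 1 and 6.34 or less in experiment 2.

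Segment by segment, differences were tested with edgeR's quasi-likelihood test on all 14418 genes that passed a filter on low counts, with a term for the experiment and Benjamini-Hochberg adjustment over all genes. Of the 124 segments 114 entered the test (94 Trav and 20 Trbv), and 10 with low counts did not, Trbv23 and 9 Trav segments including Trav11 and Trav11d. At an adjusted p of 0.05, 11 segments passed in at least 1 contrast, 4 of them Trbv and 7 Trav. The experiment term decides this. Without it no V segment passed in any contrast, and neither did any other gene, so each call below is a difference within experiments. Each fit was repeated without 1 library, and where that library belongs to the contrast its group keeps 1 library, which is then assumed to vary like the other groups. The sort contrasts and the tissue contrasts share libraries and are not independent of each other.

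Trav6d-4 was the segment with the smallest adjusted p in both tissue contrasts. It was lower in Peyer's patch than in spleen in ZsGreen- cells (log2 fold change -2.24, SE 0.29, edgeR adjusted p = 0.00107) and in ZsGreen+ cells (log2 fold change -2.03, SE 0.28, edgeR adjusted p = 0.000824). Within experiments 1 and 2 the log2 differences were -1.56 and -2.84 in ZsGreen- cells and -2.12 and -1.93 in ZsGreen+ cells. The call held in all 8 fits that left out 1 library, with an adjusted p of at most 0.0356. Summed as a family, Trav6 was lower as well, with log2 fold changes of -1.95 (edgeR adjusted p = 0.0177) and -1.80 (edgeR adjusted p = 0.0122). The family call was lost without Peyer's patch ZsGreen- replicate 2 in the first case (adjusted p = 0.100) and, in the second, without any 1 of the 4 ZsGreen+ libraries (adjusted p up to 0.102). Trac, the constant region of the same chain, had log2 fold changes of -0.63 (edgeR adjusted p = 0.339) and -0.74 (edgeR adjusted p = 0.156), which did not pass. Trbv19 was at -0.03 (edgeR adjusted p = 0.981) and -0.07 (edgeR adjusted p = 0.924).

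Other segments were called between the tissues in the opposite direction. In ZsGreen- cells 5 of 114 segments passed, beside 5.49% of all genes tested, and 4 of them were higher in Peyer's patch, beside 1.82% of all genes. These were Trbv5 (log2 fold change 1.04), Trav16d-dv11 (1.84), Trav7d-2 (1.38) and Trbv14 (1.33), with edgeR adjusted p-values of 0.0111 to 0.0354. In ZsGreen+ cells 3 of 114 passed, beside 12.7% of all genes tested, with 2 of them, Trbv5 (0.85) and Trav7-4 (0.84), higher in Peyer's patch, beside 5.51% of all genes. The median log2 fold change of the 114 segments was 0.04 in ZsGreen- and 0.11 in ZsGreen+ cells, beside 0.00 and 0.01 over all genes. Trbv5 had 389 and 322 counts in Peyer's patch ZsGreen- cells, 271 and 305 in Peyer's patch ZsGreen+ cells, 168 and 130 in spleen ZsGreen- cells and 141 and 168 in spleen ZsGreen+ cells. All 4 Peyer's patch libraries exceeded all 4 spleen libraries. Every one of these calls other than Trav6d-4 was lost in 3 or 4 of the 8 fits without 1 library. By family, 4 of 36 passed in ZsGreen- cells and 4 of 36 in ZsGreen+ cells, beside 5.55% and 13% of all genes with V families summed. In each contrast 3 of them were higher in Peyer's patch and 1, Trav6, was lower. The Trav families among the higher ones were Trav16 in ZsGreen- cells (1.38), and Trav14 (0.61) and Trav7 (0.53) in ZsGreen+ cells. The Trav16 and Trav14 calls were each lost in 3 of the 8 fits without 1 library (adjusted p up to 0.287 and 0.202). The Trav7 call was lost in 5 (adjusted p up to 0.455), with scaling by relative log expression and with DESeq2.

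Trbv31 held the largest part of endogenous Trbv counts on average, and it was the V segment with the smallest adjusted p in the mean contrast of the sorts. It is the Trbv gene that lies on the far side of the constant genes, at chr6:41534625-41535386 of the mm39 build on the minus strand, and joins by inversion. It had 1359 and 1129 counts in Peyer's patch ZsGreen- cells, 3432 and 2550 in Peyer's patch ZsGreen+ cells, 615 and 468 in spleen ZsGreen- cells and 2250 and 1949 in spleen ZsGreen+ cells. As a share of endogenous Trbv counts it was 22.1% and 23.8%, 50.8% and 35.1%, 15.6% and 16.5%, and 43.5% and 37.5% in the same order. In spleen ZsGreen- replicate 2, Trbv13-2 held more than Trbv31, at 25.7%. For Trbv31, every ZsGreen+ library stood above every ZsGreen- library, and the ZsGreen+ share was higher in 4 of 4 pairs, by 11.3 to 28.7 points. Group means were 42.9% ± 11.1 against 22.9% ± 1.19 in Peyer's patch and 40.5% ± 4.24 against 16.0% ± 0.625 in spleen (SD, n = 2 each).

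In the gene-wise test Trbv31 rose in ZsGreen+ cells of spleen (log2 fold change 1.53, SE 0.24, edgeR adjusted p = 0.00647) and in the mean of both tissues (1.28, SE 0.17, edgeR adjusted p = 0.00296). Both calls held in all 8 fits without 1 library, with adjusted p-values of at most 0.0440 and 0.0441. In Peyer's patch its log2 fold change was 1.03 (SE 0.23), which edgeR did not call (adjusted p = 0.182) and DESeq2 did. The difference between the tissues was -0.50 (SE 0.33, edgeR adjusted p = 0.765). Log2 differences within experiments 1 and 2 were 1.38 and 0.61 in Peyer's patch and 1.86 and 1.22 in spleen. Per 100 Trbv19 counts, Trbv31 was at 16.1 and 5.49 in Peyer's patch ZsGreen- cells and 21.05 and 8.30 in ZsGreen+ cells, and at 8.85 and 2.64 in spleen ZsGreen- cells and 12.7 and 6.63 in ZsGreen+ cells. ZsGreen+ cells were higher in 4 of 4 pairs on this scale too. With Trbv31 left out of the denominator, a choice made after seeing the data, Trbv19 held 86.4% ± 2.88 of Trbv counts in ZsGreen+ and 76.1% ± 12.2 in ZsGreen- libraries (SD, n = 4 each, exact permutation p = 0.257, adjusted p = 0.514).

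Few other segments differed between ZsGreen+ and ZsGreen- cells. In spleen 6 of 114 segments passed, beside 8.62% of all genes tested, and 5 of them were higher, beside 4.53% of all genes. This balance turned to 2 higher and 4 lower without spleen ZsGreen- replicate 1, 3 higher and 5 lower without spleen ZsGreen- replicate 2, and 2 higher and 3 lower without spleen ZsGreen+ replicate 1. Besides Trbv31, Trbv30, Trbv14, Trav4d-3 and Trav4n-3 rose, with log2 fold changes of 3.96, 1.28, 3.43 and 3.68 and edgeR adjusted p-values of 0.00906 to 0.0310. Trav14n-3 fell by 1.13 on the log2 scale (edgeR adjusted p = 0.00647). Trbv30 rested on few counts, 6 and 0 in spleen ZsGreen- cells against 97 and 18 in spleen ZsGreen+ cells. Trav4d-3 had 11.5 and 4 counts in spleen ZsGreen- cells against 181 and 46.9 in ZsGreen+ cells, so its highest library was the experiment 1 library. Trav4d-3 and Trav4n-3 had the same share of endogenous Trav counts in 7 of the 8 libraries and cannot be counted as separate results. Summed as a family, Trav4 had a log2 fold change of 0.0016 in spleen (edgeR adjusted p = 0.9995) and was not called. By family 4 of 36 passed in spleen, beside 8.72% of all genes with V families summed. Trav14 was the only Trav family among them, at -0.52 (edgeR adjusted p = 0.0466). The Trav14 family was not called with scaling by relative log expression or with DESeq2. The call was also lost in 6 of the 8 fits without 1 library. Its log2 fold change ranged from -0.63 to -0.40 over all fits. Without spleen ZsGreen+ replicate 1, edgeR's adjusted p rose to 0.170 for Trbv30, 0.144 for both Trav4 segments and 0.0712 for Trav14n-3. The Trav4 calls were also lost without either spleen ZsGreen- library. Trbv14 was lost in 5 of the 8 such fits, with an adjusted p of up to 0.397.

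In Peyer's patch edgeR called 0 of 114 segments, beside 0.437% of all genes tested. At an unadjusted p under 0.05 there were 13 segments, 6 higher and 7 lower, beside 8.13% of all genes, and DESeq2 called 1 segment. For the mean of both tissues 5 of 114 passed, beside 8.61% of all genes, namely Trbv31, Trbv30, Trav4d-3 and Trav4n-3 upward and Trav14n-3 downward. The difference of the sort contrast between the tissues was called by edgeR for 0 segments, beside 0.0971% of all genes, with 8 segments at an unadjusted p under 0.05, beside 8.48% of all genes, and 0 called by DESeq2. Over the 114 segments the median log2 fold change of ZsGreen+ over ZsGreen- cells was -0.23 in Peyer's patch and -0.38 in spleen, beside 0.00 and -0.03 over all genes. In spleen 49 segments were lower in ZsGreen+ cells in both experiments and 12 higher, and in Peyer's patch 49 and 21. Trav copies that share reads enter these numbers as separate segments, so the numbers are not of independent results. The same split by direction was not taken over all genes. The direction was shared by both experiments in 53.5% of the segments in spleen, beside 66.6% of all genes, and in 61.4% in Peyer's patch, beside 53.6%. Trbv19 had log2 fold changes of 0.53 (edgeR adjusted p = 0.782) and 0.58 (edgeR adjusted p = 0.403) in the 2 tissues and was not called.

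**Figure D3:**
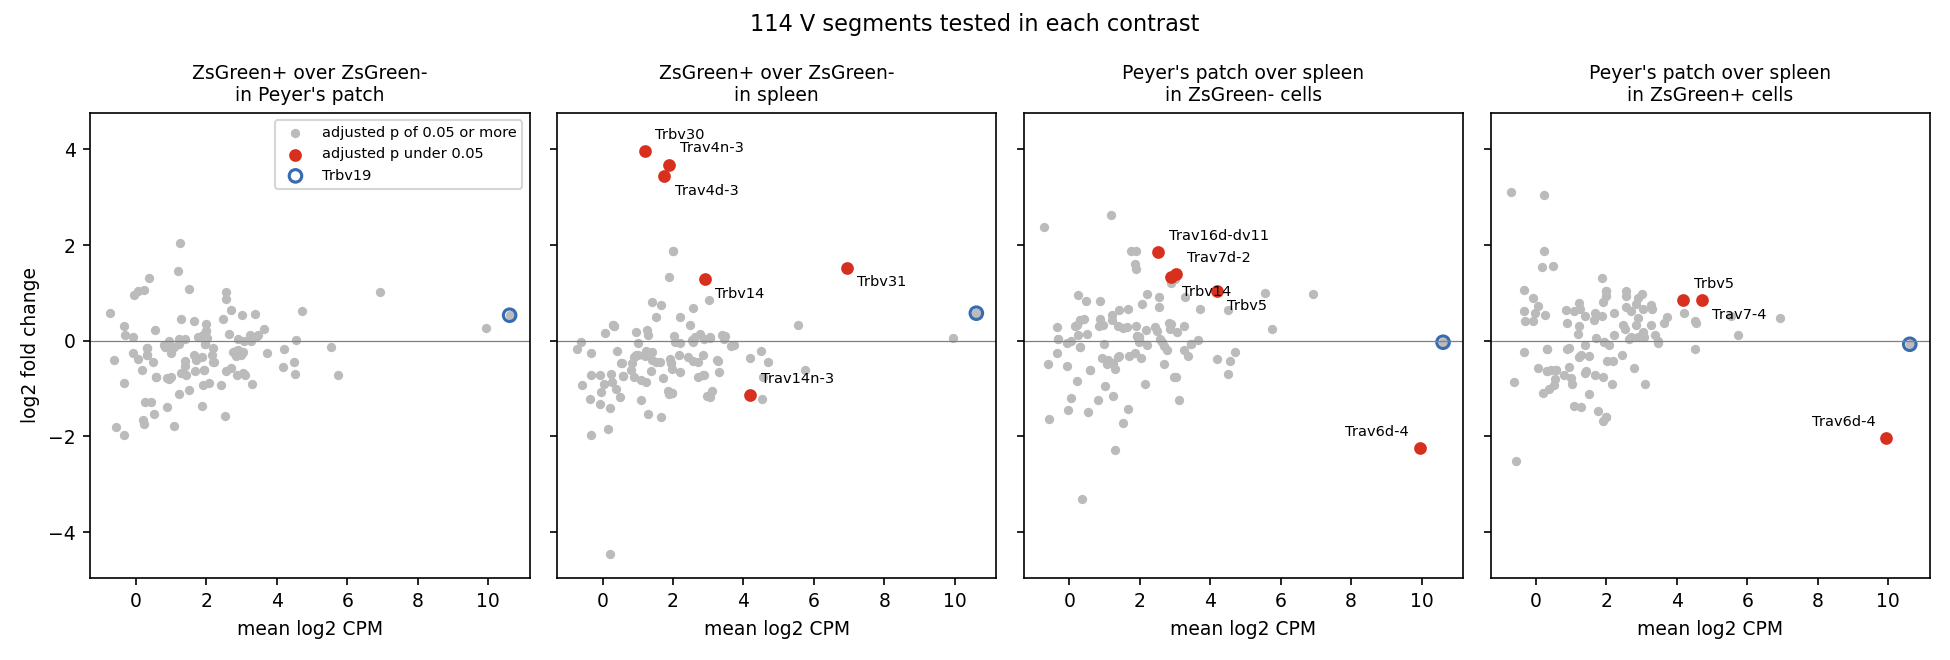
Log2 fold change (y axis) against mean log2 CPM (x axis) of the 114 V segments in 4 contrasts. Red points had an edgeR adjusted p under 0.05, grey points did not, and the blue ring marks Trbv19. Trav6d-4 lies at -2.24 and -2.03 in the tissue contrasts, Trbv31 at 1.53 in the spleen sort contrast, and no point is red in the Peyer's patch sort contrast.

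The endogenous beta repertoire was uneven. After Trbv31, the segments with the largest mean shares of endogenous Trbv counts were Trbv13-2 (5.63% to 25.7% over the libraries), Trbv16 (5.05% to 17.0%), Trbv3 (2.03% to 12.3%), Trbv1 (1.79% to 16.0%) and Trbv13-1 (4.60% to 8.31%). Trbv13-2 was highest in spleen ZsGreen- replicate 2 and lowest in Peyer's patch ZsGreen+ replicate 1, and Trbv1 was highest and lowest in those same libraries. The effective number of endogenous Trbv segments, the number of equally used segments that would give the same concentration, was 8.97 and 7.96 in Peyer's patch ZsGreen- cells, 3.56 and 5.71 in Peyer's patch ZsGreen+ cells, 11.1 and 7.35 in spleen ZsGreen- cells and 4.61 and 5.20 in spleen ZsGreen+ cells. It was lower in ZsGreen+ cells in 4 of 4 pairs. Without Trbv31 it was 6.41 to 11.7 and lower in ZsGreen+ cells in 1 of 4 pairs. Endogenous Trbv counts summed to 259 to 529 CPM. The sum was higher in Peyer's patch than in spleen in 4 of 4 pairs. It was higher in ZsGreen+ than in ZsGreen- cells in 4 of 4 pairs, by 57.5 to 88.4 CPM. Trbv31 is part of the sum, at 90.9 and 105 CPM in Peyer's patch ZsGreen- and 238 and 186 in ZsGreen+ cells. In spleen it was at 40.4 and 47.0 CPM in ZsGreen- and 147 and 137 in ZsGreen+ cells. The higher sum in ZsGreen+ cells therefore does not stand for the other endogenous segments as a set.

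The effective number of endogenous Trav segments was 38.9 and 34.2 in Peyer's patch ZsGreen- cells and 34.5 and 25.2 in Peyer's patch ZsGreen+ cells. In spleen it was 44.4 and 30.8 in ZsGreen- cells and 37.5 and 33.3 in ZsGreen+ cells. It was lower in experiment 2 in 4 of 4 groups, and the sorts and tissues overlapped. This number is over 88 rows, many of which share reads, so it is not comparable with the number over 20 Trbv rows. Counted by family, the effective number was 6.28 to 8.94 for endogenous Trav and 3.41 to 8.28 for endogenous Trbv, higher for Trav in each library. By family, Trav14 held 14.8% to 26.2% of endogenous Trav counts, Trav7 held 11.8% to 26.1% and Trav9 held 7.53% to 18.6%. Trav12 stood at 17.2% in spleen ZsGreen+ replicate 1 and at 3.41% to 7.31% in the other libraries. Trav4 was also highest there, at 18.3% against 5.94% to 13.5% elsewhere, and these last 2 families are named because of their values. Among single segments, Trav7-4 held 2.88% to 14.3%, with 846 counts in Peyer's patch ZsGreen+ replicate 2, and Trav9n-4 held 2.99% to 7.76% in experiment 1 and 1.29% to 1.70% in experiment 2. Trav14n-3 held 2.50% to 8.09%, Trav14d-3-dv8 2.26% to 5.14%, Trav3-3 2.08% to 4.21% and Trav7d-2 1.23% to 5.51%. Replicates of a group differed by over 2-fold in 11 of 20 Trav segments with 100 counts in Peyer's patch ZsGreen- cells, 13 of 25 in Peyer's patch ZsGreen+, 5 of 13 in spleen ZsGreen- and 12 of 18 in spleen ZsGreen+ cells.

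**Figure D4:**
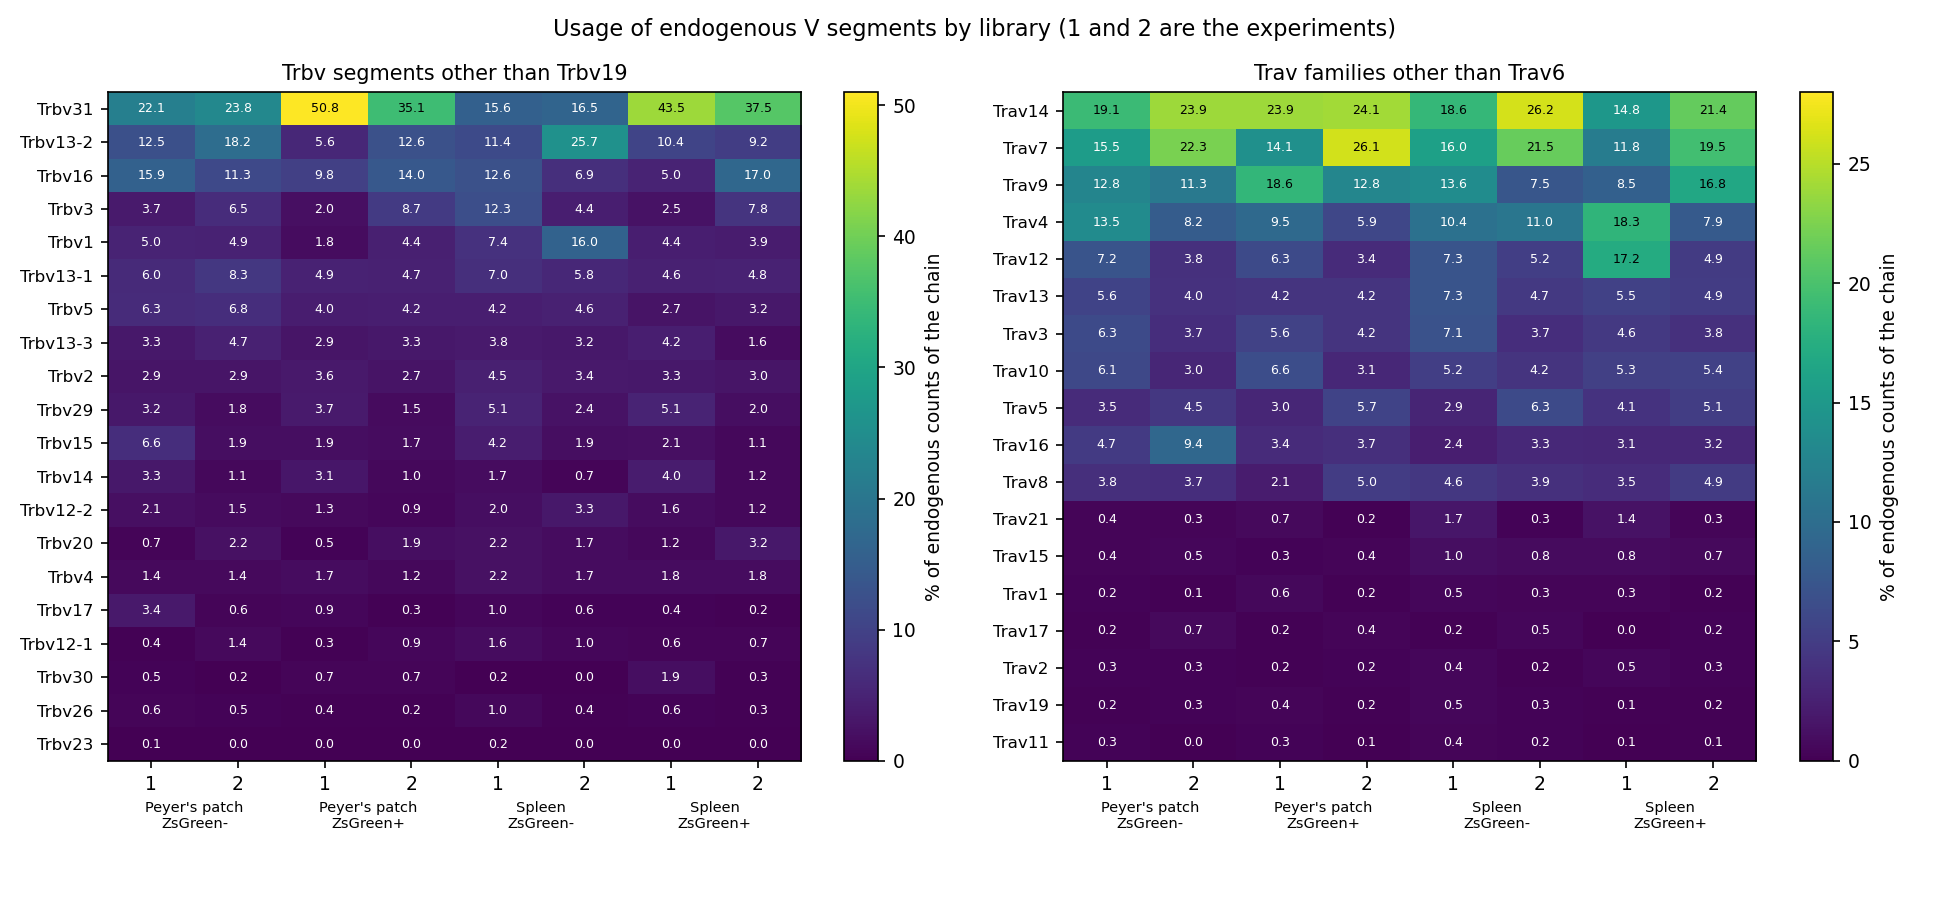
Share (colour and printed value, %) of each Trbv segment other than Trbv19 in endogenous Trbv counts (left) and of each Trav family other than Trav6 in endogenous Trav counts (right), for the 8 libraries on the x axes (experiments 1 and 2 within each group). Trbv31 was at 35.1% or more in ZsGreen+ and at 23.8% or less in ZsGreen- libraries, and Trav14 at 14.8% to 26.2% throughout.

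The segments of invariant T cells stayed at low counts. Trav1, the alpha segment of mucosal-associated invariant T cells, had 5 to 24 counts per library, and Trav11 and Trav11d, those of invariant natural killer T cells, had at most 8.40 and 9.60. Of the 3 other genes listed for such cells, 2 rose in ZsGreen+ cells in the mean of both tissues, beside 8.61% of all genes called. In spleen 1 rose, beside 8.62% of all genes called. Zbtb16, a transcription factor of invariant T cells, had a log2 fold change of 1.81 in the mean (edgeR adjusted p = 0.0405). In spleen it was at 1.69 (edgeR adjusted p = 0.164), and its level was 0.278 to 7.96 CPM. Klrb1b rose in the mean (edgeR adjusted p = 0.00830) and in spleen (log2 fold change 3.76, edgeR adjusted p = 0.0251), from 1 and 5 counts in spleen ZsGreen- cells to 55 in each spleen ZsGreen+ library, and it was at 0 in both Peyer's patch ZsGreen- libraries. Klrb1c was at -0.05 in the mean and 0.10 in spleen and did not pass. Between the tissues, 1 of the 3 genes, Klrb1c, was higher in Peyer's patch in ZsGreen- cells, beside 5.49% of all genes called. In ZsGreen+ cells 1, again Klrb1c, was higher and 1 lower in Peyer's patch, beside 12.7% of all genes called. The part of these genes in the Trbv31 result was not tested. Of the 6 γδ T cell genes 1, Trdc, fell in spleen ZsGreen+ cells, beside 8.62% of all genes called in that contrast. It fell by 2.29 on the log2 scale (edgeR adjusted p = 0.0398). The median of the 6 was 0.53. Trgv2 (2.74, edgeR adjusted p = 0.105), Trgc1 (1.84, edgeR adjusted p = 0.444) and Trgc2 (1.46, edgeR adjusted p = 0.0929) had higher values that did not pass. In the mean of both tissues 1 of the 6 was called, lower in ZsGreen+ cells, beside 8.61% of all genes called.

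Genes of the receptor complex were read beside the segments. None of the 3 constant region genes passed in any of the 6 contrasts. Of the 4 CD3 and zeta chain genes 1, Cd3e, fell in ZsGreen+ cells of spleen (log2 fold change -0.83, edgeR adjusted p = 0.0426), beside 8.62% of all genes called in that contrast, and 0 passed in the other contrasts. Of 8 genes that restrain receptor signalling or surface level, Sla rose in spleen ZsGreen+ cells (1.24, edgeR adjusted p = 0.00195), as it did in the mean of both tissues, and Cblb fell (-0.59, edgeR adjusted p = 0.0220), so 2 of 8 passed there, beside the same 8.62%. In Peyer's patch against spleen, 2 of 8 fell in ZsGreen+ cells, Sla (-1.36) and Grap (-0.50, edgeR adjusted p = 0.0253), beside 12.7% of all genes. Cxcr5, one of the sorting markers, fell by 1.69 on the log2 scale in spleen ZsGreen+ cells (edgeR adjusted p = 0.000127), the contrast in which Trbv31 rose, and its part in the V segment results was not tested. Trbc2 held 71.9% to 84.5% of beta constant region counts and was higher in ZsGreen+ cells in 4 of 4 pairs and lower in Peyer's patch in 4 of 4 pairs.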

How the data were processed

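Messenger RNA was measured in 8 libraries of sorted Tfh cells. The authors deposited raw tables of estimated counts per gene, not whole numbers, for each experiment and normalized tables that hold a signal, which is the deposited counts multiplied by 1 constant per library (0.765 to 1.58). STAR, Partek, DESeq2 and mm39 are named per the submitters' processing notes. Their versions and settings were not given in the sources used here. A segment's share is its counts over all Trav or all Trbv counts of the library. For tests, estimated counts were rounded and fitted with edgeR 4.0.16 (R 4.3.3): filterByExpr by group (minimum count 10, minimum total 15), TMM factors of 0.656 to 1.24, robust quasi-likelihood with a mean per group and an experiment term, 3 residual degrees of freedom, 6 contrasts. The scripts were tested on simulated data. The labels place replicate 1 of each group in experiment 1 and replicate 2 in experiment 2. Deviations from group means correlated between libraries of the same experiment over all genes (r 0.825 to 0.867, 6 pairs) and over V segments (0.189 to 0.583). Nothing says that replicates are separate animals, so the p-values reflect only how far these samples spread, possibly for technical reasons. Shares were compared with exact permutation tests over 70 assignments of 8 libraries. DESeq2 1.42.0, other scalings, filters and each library left out were tried. Named were the transgene segments, the 6 largest endogenous segments per chain, Trav families and Trbv segments above 10% of their chain in a library, called segments and invariant T cell segments. The members and lists were chosen with earlier results of these data known. Coordinates of genes are mm39 from the deposited tables, and sequences with their coordinates are GRCm38.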

Additional observations from a re-analysis of the deposited data

Results flagged for a closer look

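Rows outside the comparisons also held counts. The 6 V pseudogene rows in both tables summed to 251.6 counts over the 8 libraries, at most 0.493% of a chain's counts in a library, and Trav9n-1 had the most, 78.4. The 4 V segments in 1 table only summed to 55.2 counts, at most 0.0894% of a chain's counts in a library. Each group had 2 libraries, too few to look for a library far from the rest of its group.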

How the results depend on the processing

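The experiment term, the replicate block of this design, had the largest effect: with no replicate block, edgeR called 0 V segments and 0 V families in each of the 6 contrasts. Scaling by relative log expression, no filter and V rows left out of the scaling kept the number of segments called within 1.5 times of the reported one. DESeq2 did so too, apart from the Peyer's patch sort contrast, where it called 1 segment and 1 family. Without a count filter 4 families were called in the mean sort contrast in place of 2, and with families summed that contrast had 2 calls in place of 5. Leaving out 1 library each time gave 0 to 1 segment calls for the sort in Peyer's patch, 5 to 8 in spleen, 2 to 10 for the mean, 0 to 2 for the difference, 1 to 8 for tissue in ZsGreen- and 2 to 8 in ZsGreen+ cells, and 0 to 1, 2 to 5, 1 to 6, 0 to 0, 0 to 5 and 1 to 4 family calls in the same order. Of the 19 calls of a segment in a contrast, 4 held in all 8 such fits and 15 did not. The Trav6 share difference between sorts was 4.83 points and ranged from -4.73 to 16.1, reversing without Peyer's patch ZsGreen- replicate 1 (-3.12) and without spleen ZsGreen+ replicate 2. The other share differences kept their direction in every alternative, at 1.42 to 10.9 points for Trbv19 by sort, -10.2 to -0.468 for Trbv19 by tissue and -35.0 to -21.6 for Trav6 by tissue without 1 library, and none passed. Permuted within experiments, the replicate block for the shares, the Trav6 tissue difference stayed at -27.5 points. Counts per transcript length, Trbv31 left out and Trav6d-4 alone were chosen after seeing the data.

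The effective numbers depend on the definition. The mean endogenous Trbv number was 8.46, 4.63, 9.22 and 4.91 in Peyer's patch ZsGreen-, Peyer's patch ZsGreen+, spleen ZsGreen- and spleen ZsGreen+ cells, and from Shannon entropy 11.5, 8.07, 11.96 and 8.66. By families the Peyer's patch ZsGreen- value was 6.36. For Trav, family values were 7.79, 6.81, 7.87 and 7.96, and Shannon values 51.6, 45.6, 53.1 and 50.4. With 2 libraries a group and 3 residual degrees of freedom, small differences were not detectable.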

Other observations

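Trav usage was described along the locus, and its order was not tested. Because near copies share reads, the place of a count along the locus is uncertain. In 4 bins of 22 endogenous segments in chromosomal order, the bin that spans chr14:53491249-53782982 of mm39 held 28.1% to 44.8% of endogenous Trav counts over the libraries, and the bins at the 2 ends held 15.1% to 24.4% and 18.3% to 25.7%. The duplicated d copies of Trav (28 segments) held 23.7% to 29.8%, the n copies (23 segments) 23.2% to 30.3% and the 37 segments with no such letter 41.4% to 48.2%.

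Libraries of the same experiment and sort had the most alike endogenous Trbv profiles. The usage that would have to move to make 2 profiles equal had a median of 17.2 percentage points for Peyer's patch against spleen of the same sort and experiment, 31.4 for ZsGreen+ against ZsGreen- of the same tissue and experiment, and 21.5 between the replicates of a group, over 4 pairs each. Endogenous Trav profiles were taken by family and Trbv profiles by segment, so values of the 2 chains are not comparable. For endogenous Trav the medians were 11.1, 12.1 and 18.4 in the same order. For Trav the replicates, which come from different experiments, were thus the least alike of the 3.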
